A study of Macaca mulatta with 2 samples.

Results

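The barcodes described here are those with more than 20% of their gene UMIs on 15 features counted as mitochondrial. They came from a library of double-positive (DP) T cells, CD4+CD8+, from the blood of 1 rhesus monkey. They were chosen by their mitochondrial percent, a measured value. A droplet barcode was used if it held 200 to 4000 detected genes, and its mitochondrial percent was the share of its gene UMIs that fell on 15 features. These were the 13 named protein-coding genes of the mitochondrial genome and 2 features without a symbol, ENSMMUG00000065373 and ENSMMUG00000065362. The 2 were counted as mitochondrial by the rule, and what they encode and their place in the genome were not checked. Of 7923 barcodes, 7876 had 200 to 4000 genes, and 275 of these lay above 20% (high-mitochondrial barcodes) and 7601 at or below it (kept barcodes). The animal was untreated and aged 6 years. CD4+ cells were taken from blood mononuclear cells with releasable magnetic beads, and the CD8+ cells among them with further beads. Each of the 7923 barcodes carried UMIs both in a 5′ RNA library and in a tag library made from antibodies to CD4 and CD8, whose DNA labels count protein on the cell surface. A UMI, a unique molecular identifier, marks 1 captured molecule. With 1 sample there was no replicate and no test. Intervals are exact 95% intervals that cover counting error only, and cells are not replicates.

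Mitochondria keep a small circular genome of their own, which encodes subunits of the respiratory chain and is transcribed inside the organelle. Most messenger RNA lies in the cytosol, where the short and abundant mRNAs of ribosomal proteins make up much of the message of a resting T cell. A high mitochondrial share is widely used to set aside barcodes of damaged cells, because cytosolic RNA can leak out of a cell while RNA inside mitochondria stays. DP T cells carry both CD4 and CD8 on their surface, whereas most blood T cells carry 1 of them.

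The RNA library held 32297887 gene UMIs in all. The mitochondrial percent of the high-mitochondrial barcodes ran from 20.004 to 78.7% with a median of 24.8%, against a median of 4.001% in kept barcodes. Just above the limit, the 39 barcodes between 20 and 21% had a median of 3212 non-mitochondrial UMIs, 25.03% ribosomal protein UMIs, 347 CD4 tag UMIs and 444 CD8 tag UMIs. Just below it, the 40 barcodes between 19 and 20% had medians of 3197 UMIs, 24.6%, 379.5 and 427.5. The limit thus passed through barcodes with like values on either side. As a check of the label, 228 of the 275 (82.9%, 77.9 to 87.2%) held at least 1 UMI of the T cell receptor subunits CD3D, CD3E or CD3G, against 7445 of the 7601 kept barcodes (97.9%, 97.6 to 98.3%). The high-mitochondrial barcodes were the shallower group here, with a median of 1610 non-mitochondrial UMIs against 3446.

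The high-mitochondrial barcodes fell into a shallow and a deep set. Non-mitochondrial UMIs per barcode ran from 291 to 11398, and 7 barcodes had 2000 to 2500 of them. The bins on either side held 12 (1500 to 2000) and 22 (2500 to 3000). Further off were 77 with 500 to 1000 and 46 in the wider bin of 3000 to 4000. The high-mitochondrial barcodes were therefore described apart at 2000 non-mitochondrial UMIs, a value set after this dip had been seen. The shallow set had 146 barcodes with a median of 870.5 non-mitochondrial UMIs and 633.5 genes. The deep set had 129 barcodes with a median of 3805 UMIs and 1392 genes. In kept barcodes 533 were shallow and 7068 were deep, with medians of 1105 and 3547 UMIs. Depth outside the 15 features enters the mitochondrial percent, so the shallowness of the group is a description and was partly set by the rule.

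The sets differed most in the mRNAs of cytosolic ribosomal proteins, which the rule did not use directly. In shallow high-mitochondrial barcodes they made up a median of 4.59% of non-mitochondrial UMIs (quartiles 3.50 and 5.76%). In the deep set the median was 28.5% (quartiles 23.2 and 34.3%), close to the 30.8% of deep kept barcodes (quartiles 25.4 and 37.6%). Under 15% ribosomal protein UMIs, a limit also set after the values had been seen, lay 138 of the 146 shallow barcodes (94.5%, 89.5 to 97.6%) and 4 of the 129 deep ones (3.101%, 0.851 to 7.75%). Of all 275 high-mitochondrial barcodes, 9 lay within 2.5 points of that limit.

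**Figure D1:**
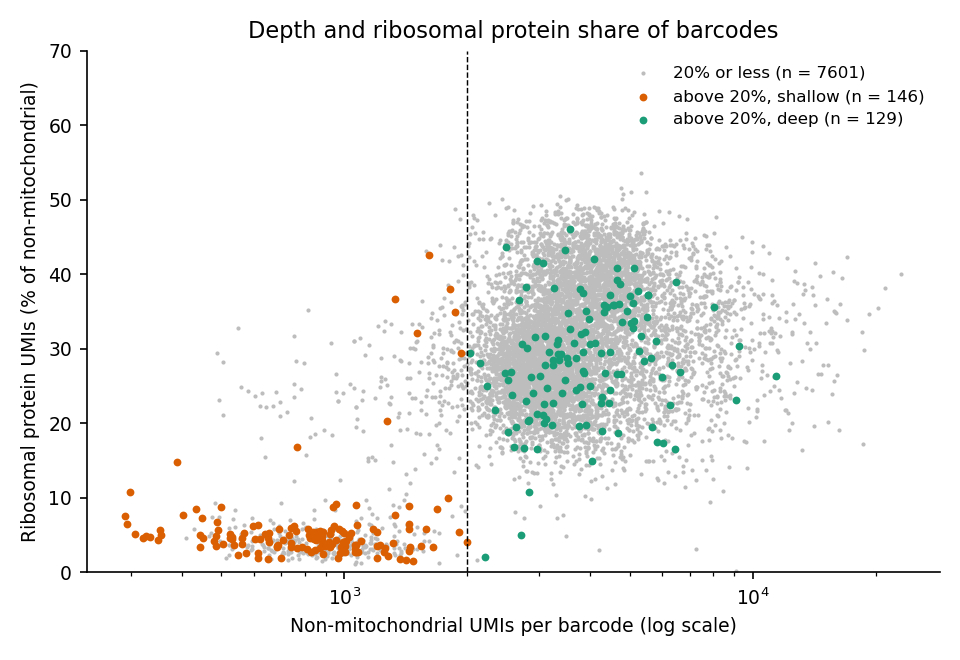
Each point is a barcode, with its non-mitochondrial UMIs on a log axis and the percent of these UMIs that came from cytosolic ribosomal protein genes. Grey points are the 7601 kept barcodes, orange and green points the 146 shallow and 129 deep high-mitochondrial barcodes, and the dashed line stands at 2000 UMIs. Most orange points lie under 10% and most green points lie within the grey cloud above 15%.

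A low ribosomal share was not particular to barcodes above the limit. Among all 7876 barcodes, 522 had under 15% ribosomal protein UMIs, and 142 of them (27.2%, 23.4 to 31.2%) were above 20% mitochondrial UMIs, while the other 380 were kept. The share of barcodes under 15% was 1.90% (20 of 1051) at a mitochondrial percent up to 2.5 and 1.54% (60 of 3898) at 2.5 to 5, and went from there through 7.14%, 18.6% and 24.3% in the next 3 bins, to 34.8% at 20 to 25, 55.6% at 25 to 35 and 97.7% (43 of 44) above 35. The kept low-ribosomal barcodes included 74 deep ones, which held 53.3% of their non-mitochondrial UMIs, against 4 deep ones with 8.99% in the high-mitochondrial group, so sums over all of them mix depths.

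Within the shallow low-ribosomal barcodes, 138 high-mitochondrial and 306 kept, at median depths of 853.5 and 911.5 UMIs, most of the lists compared lay close together. Levels are given as CPM, UMIs scaled to a total of 1000000 non-mitochondrial UMIs, and ratios as log2 of the summed counts. Ribosomal proteins, which defined these barcodes, stood at 46103 against 47174 CPM (-0.03, -0.08 to 0.01), and actin and its binding proteins at 12338 against 12938 CPM (-0.07, -0.16 to 0.02). Nuclear-encoded subunits of oxidative phosphorylation had a ratio of -0.16 (-0.28 to -0.03) and T cell surface proteins of -0.16 (-0.21 to -0.11). Cytotoxic genes lay further apart, at 6341 against 9578 CPM (-0.59, -0.71 to -0.48), with GZMB, granzyme B, at 974 against 1719 CPM (-0.82, -1.12 to -0.53). S100A4, a small calcium-binding protein, stood at 462 against 707 CPM (-0.61, -1.07 to -0.18). Over all 142 and 380 barcodes, with the deep ones included, the sums differed more, at -0.79 for ribosomal proteins, -0.95 for oxidative phosphorylation, -1.18 for actin genes and -2.19 for S100A4.

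The mitochondrial features themselves chose the members, so their levels are a description. They behaved differently in the shallow and the deep set. ENSMMUG00000065373 and ENSMMUG00000065362 together held 220291 of the 233864 mitochondrial UMIs of the high-mitochondrial barcodes (94.2%), and the 13 named genes the remaining 5.80%. In kept barcodes the named genes held 19.8%. Set against non-mitochondrial UMIs, the unnamed pair was 7.47-fold higher in all high-mitochondrial barcodes than in kept ones, and the 13 named genes 1.86-fold. No barcode with 200 to 4000 genes exceeded 20% on the 13 named genes alone, where the highest value was 14.6%.

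In deep barcodes the named mitochondrial genes lay close to their kept level, at 1.11-fold in sum (log2 interval 0.11 to 0.18). Their median was 1.09% of non-mitochondrial UMIs in the deep high-mitochondrial set and 1.06% in deep kept barcodes, whereas the unnamed pair stood at 29.6% and 2.91%. Summed over the set, COX3, a subunit of cytochrome c oxidase, was 1.01-fold of its kept level (626 UMIs, log2 interval -0.10 to 0.13). COX2 was 1.09-fold (2714 UMIs, 0.07 to 0.18), and ATP6, a subunit of ATP synthase, 1.10-fold (1604 UMIs, 0.07 to 0.21). COX1 was 1.28-fold (846 UMIs, 0.26 to 0.46). ENSMMUG00000065373 was 7.59-fold and ENSMMUG00000065362 6.58-fold.

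In shallow barcodes both kinds of feature were higher. The named genes had a median of 5.34% of non-mitochondrial UMIs in the shallow high-mitochondrial set, against 1.82% in shallow kept barcodes, and the unnamed pair 33.0% against 5.92%. COX1 was 3.20-fold (log2 interval 1.57 to 1.79), COX2 2.498-fold (1.26 to 1.39), ATP6 2.70-fold (1.35 to 1.52), COX3 2.40-fold (1.13 to 1.40), and ND2 and ND4, subunits of complex I, 2.40-fold and 2.06-fold. ND5 was 3.18-fold on 41 UMIs. Few UMIs fell on ND1 (12 in all 275 barcodes), ND3 (36), ND4L (5) and CYTB (4), and none on ATP8 or ND6. In kept barcodes ATP8 had 13 UMIs and ND6 none.

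**Figure D2:**
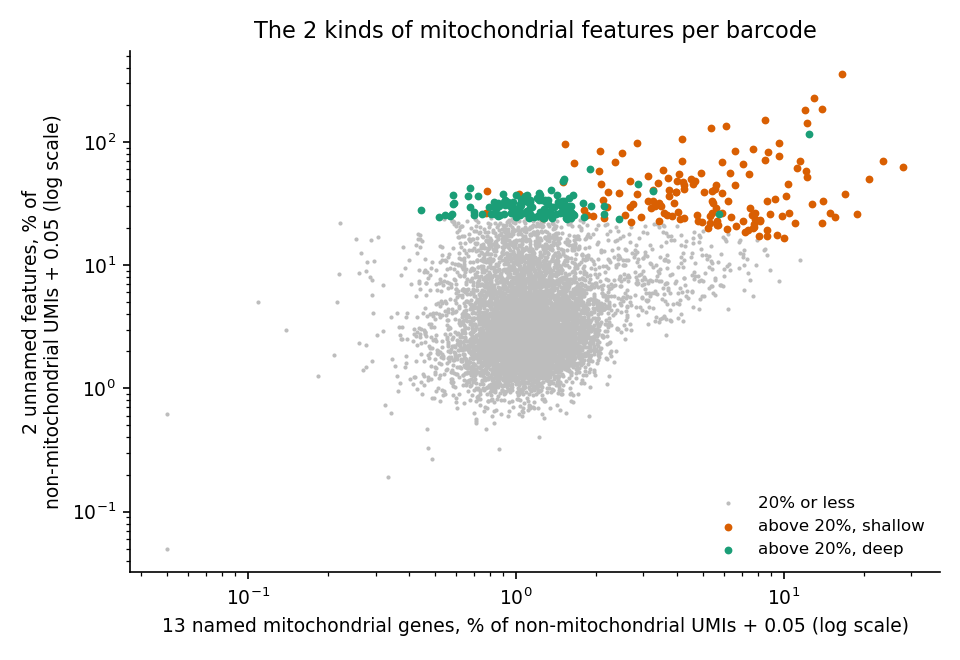
Each point is a barcode, with the UMIs of the 13 named mitochondrial genes on the horizontal axis and of the 2 unnamed features on the vertical axis, both as a percent of non-mitochondrial UMIs with 0.05 added and on log axes. Green points (deep, above 20%) lie above the grey kept barcodes around a horizontal value near 1.09%, and orange points (shallow, above 20%) reach further to the right, around a median of 5.34%.

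The choice of features decided which barcodes stood out. When the 275 barcodes with the highest percent on the 13 named genes were taken, 95 of them (34.5%) were also above 20% on all 15 features. Of these 275, 253 (92.0%) had under 15% ribosomal protein UMIs and 21 were deep, with a median of 887 non-mitochondrial UMIs. The 180 high-mitochondrial barcodes that this ranking left out had a median of 3185 non-mitochondrial UMIs and 26.0% ribosomal protein UMIs, and 127 of them were deep.

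The genes outside the 15 features were compared by the CPM of their summed UMIs. A gene was compared if the mean of both groups was at least 50 CPM, and is called higher or lower if the ratio of CPM + 10 passed 2-fold. Over all high-mitochondrial against all kept barcodes, 50 of 2625 genes were higher (1.9%) and 1 was lower (0.0381%), with a median log2 ratio of 0.14. Deep barcodes held 80.1% of the non-mitochondrial UMIs of the high-mitochondrial group, but the differences mix both sets. The summed log2 ratio of ribosomal proteins was -0.36 over all barcodes, -0.14 in deep and -1.26 in shallow ones. In shallow barcodes 303 of 3826 genes were higher (7.92%) and 269 lower (7.03%). In deep barcodes 12 of 2408 were higher (0.498%) and 1 lower (0.0415%). In the shallow set 1 UMI is worth 7.63 CPM, which makes its folds the less precise ones. Some genes reached the mean of 50 CPM only through the group in which they were high. Over all barcodes, 25 of the 50 higher genes had under 50 CPM in kept barcodes. The 1 lower gene had under 50 CPM in high-mitochondrial barcodes. Among the shallow set's genes, 177 of the 303 higher ones had under 50 CPM in kept barcodes. Of its 269 lower ones, 82 had under 50 CPM in high-mitochondrial barcodes. In the deep set 4 of the 12 higher ones had under 50 CPM in kept barcodes, and the 1 lower gene in high-mitochondrial barcodes.

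In shallow barcodes, genes of protein synthesis, energy metabolism and the actin cytoskeleton were lower in the high-mitochondrial set. Of 76 cytosolic ribosomal protein genes compared, 62 were lower and none higher, and their sum had a log2 ratio of -1.26 (-1.29 to -1.23). RPL10, the most abundant of them, stood at 2242 CPM against 6064 (log2 -1.43), and RPS15A at 15.3 against 99.9, from 2 UMIs in the high-mitochondrial set. Of 21 translation factors, 9 were lower (sum -0.89, -0.96 to -0.82). EEF1A1, which brings transfer RNA to the ribosome, was at 3858 against 9003 CPM (-1.22). Shallow kept barcodes were a mixture, since 306 of 533 (57.4%) had under 15% ribosomal protein UMIs, against 138 of 146. Within the shallow low-ribosomal barcodes described above, the ratios of ribosomal proteins and actin genes were near 0, that of oxidative phosphorylation was -0.16 in place of -0.87, and that of T cell surface proteins turned from 0.14 to -0.16.

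Nuclear-encoded subunits of the respiratory chain were lower in sum than in shallow kept barcodes. Of 55 compared, 22 were lower and none higher (sum -0.87, -0.97 to -0.77). Within the shallow low-ribosomal barcodes the sum was -0.16 (-0.28 to -0.03). NDUFB1, with the smallest ratio, was at 15.3 against 92.0 CPM from 2 UMIs, so it reached the mean of 50 CPM only through kept barcodes. ATP5F1E, a subunit of ATP synthase, was at 435 against 1226 CPM (-1.47), and NDUFS3, with the largest ratio, at 122 against 95.2 CPM (0.33, count interval -0.54 to 1.17). Of 12 glycolytic enzymes 5 were lower (ALDOA, TPI1, GAPDH, PGAM1 and LDHA) and PFKP was higher (sum -0.92, -1.10 to -0.74), with GAPDH at 526 against 1481 CPM (-1.48). Of 19 genes of actin and its binding proteins 6 were lower (sum -1.005, -1.08 to -0.93), with TMSB10, a small actin-binding protein, at 1716 against 5120 CPM (-1.57). S100A4 was at 587 against 2719 CPM (-2.19, count interval -2.56 to -1.88). Within the shallow low-ribosomal barcodes its ratio of counts was -0.61 (-1.07 to -0.18). Redox and iron genes had 4 of 11 lower (sum -0.72), which were PRDX5, SOD2, GPX4 and FTH1. PRDX5 was at 38.1 against 125 CPM from 5 UMIs, so it reached the mean of 50 CPM only through kept barcodes. The proteasome summed to -0.45, with 3 of 30 lower, which is near the 7.03% of all genes called lower in shallow barcodes.

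PDCD10, TRBV7-3 and LSM4, with the smallest ratios of all genes with a symbol in shallow barcodes, rested on 1, 2 and 2 UMIs in the high-mitochondrial set. Mitochondrial ribosomal proteins summed to -0.29 (-0.46 to -0.12), with 4 of 20 lower, and interferon-stimulated genes to -0.30 (-0.51 to -0.10), with 1 of 6 lower. Over all genes 7.03% were lower in shallow barcodes, and with 6 members compared the interferon count is not read further. Mitochondrial import genes summed to -0.28 (-0.48 to -0.09). In that list HSPA9, the chaperone of import, was at 290 against 136 CPM (1.03), while TOMM7, of the outer membrane import pore, was at 252 against 717 CPM (-1.47), and TOMM22 and TIMM17A were lower too.

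Several lists were level or higher in the shallow high-mitochondrial set than in all shallow kept barcodes. mRNAs of T cell surface proteins had a summed log2 ratio of 0.14 (0.09 to 0.19), with CD48 and CD52 lower among 45 and none higher. Within the shallow low-ribosomal barcodes their ratio was instead -0.16 (-0.21 to -0.11). The other lists of this paragraph were not compared within those barcodes. Over all genes in shallow barcodes, 7.92% were higher and 7.03% lower. PTPRC, the phosphatase CD45, stood at 4072 against 2988 CPM (0.45), and CD52, with the smallest ratio of the list, at 1190 against 2592 CPM (-1.12). Genes of antigen presentation summed to 0.0044 (-0.05 to 0.06), with CANX, a chaperone of the endoplasmic reticulum, at 557 against 244 CPM (1.16) and B2M, the light chain of MHC class I, at 11324 against 12495 CPM (-0.14). Retained-intron and speckle genes summed to 0.51 (0.43 to 0.60), with none of 25 past 2-fold. Where in the cell their RNA lay was not measured. Genes that copy and maintain mitochondrial DNA and RNA summed to 0.76 (0.51 to 0.998), with SLIRP lower among 11 and 3 higher. SLIRP was at 38.1 against 102 CPM from 5 UMIs, so it reached the mean of 50 CPM only through kept barcodes. Of the 3 higher ones, TFB1M and MTERF1 had under 50 CPM in kept barcodes, from 11 and 14 UMIs in the high-mitochondrial set, and SUPV3L1 was at 168 against 71.4 CPM. In this list LRPPRC, which stabilizes mitochondrial mRNA, was at 236 against 119 CPM from 31 UMIs.

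Genes of cell death and stress were compared in few members, so their counts are near what the shares over all genes, 7.92% higher and 7.03% lower, would give, and only their sums are read here. In shallow barcodes cell death genes summed to 0.16 (-0.04 to 0.36), with MCL1, which holds back cell death, at 427 against 232 CPM (0.86). The integrated stress response summed to 0.21 (0.05 to 0.37), immediate early genes to 0.08 (0.01 to 0.15) and heat shock genes to 0.23 (0.05 to 0.41), with the co-chaperone DNAJA1 at 320 against 144 CPM. In deep barcodes the sums of these 4 lists lay between -0.04 and 0.16.

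**Figure D3:**
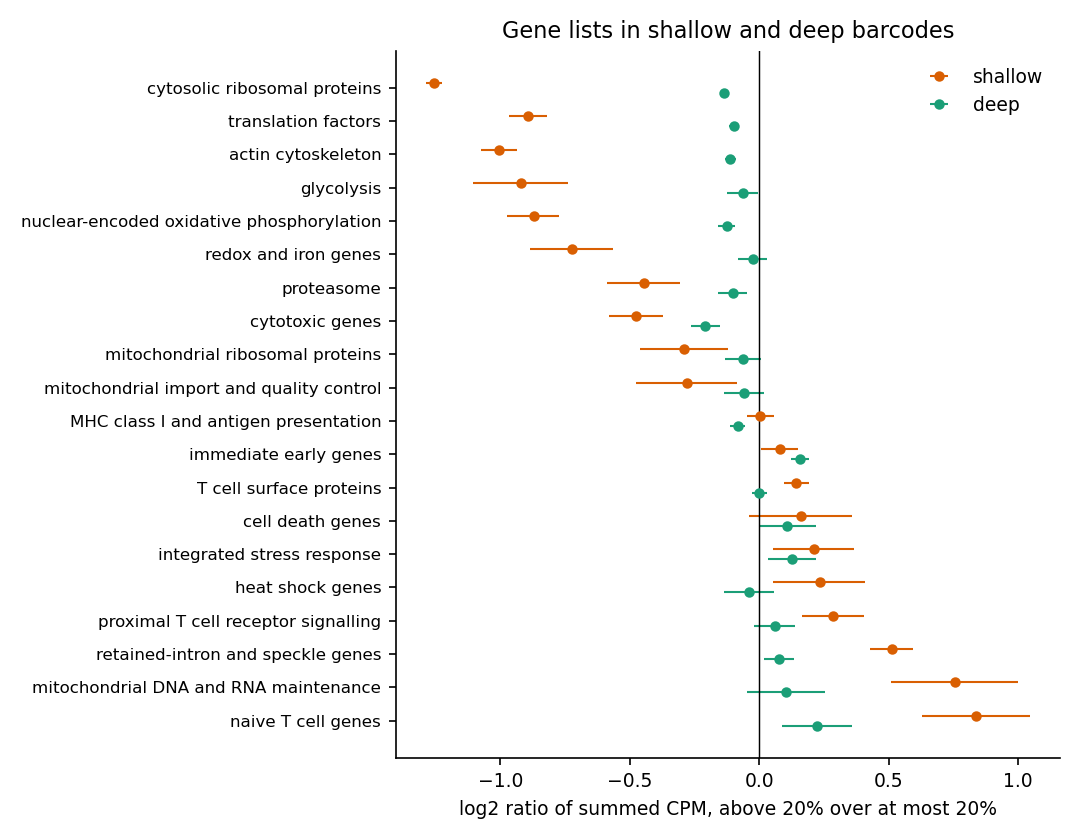
Points are log2 ratios of the summed CPM of each gene list shown, high-mitochondrial over kept, in shallow (orange) and deep (green) barcodes. Bars are exact 95% intervals of counting error, and not every list compared is shown. Shallow kept barcodes are a mixture, and within the shallow low-ribosomal ones T cell surface proteins stood at -0.16. Orange points run from -1.26 for ribosomal proteins to 0.84 for naive T cell genes, and the green points of the same lists lie between -0.21 and 0.22.

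In deep barcodes the gene lists of protein synthesis, energy metabolism, actin and T cell surface proteins stayed close to 0, and a short set of genes stood out. Other lists lay further off. Helper T cell genes summed to 0.32 (0.17 to 0.47) and regulatory T cell genes to -0.36 (-0.74 to -0.0071). The regulatory list rested on 64 UMIs, with 1 of 6 members compared, and over all barcodes its ratio was 0.01 (-0.28 to 0.29). Among lists of other blood cells in deep barcodes, B cell genes stood at 1.16 (0.99 to 1.32) and plasmacytoid dendritic cell genes at -0.52 (-0.66 to -0.40). GZMB, also a cytotoxic gene, held 461 of the 484 UMIs of the plasmacytoid list. Ribosomal proteins summed to -0.14 (-0.14 to -0.13), nuclear-encoded oxidative phosphorylation to -0.13 (-0.16 to -0.09), glycolysis to -0.06 (-0.13 to -0.0034), actin genes to -0.11 (-0.13 to -0.09) and T cell surface proteins to -0.0005 (-0.03 to 0.03). Of the 12 genes that were higher, 9 have a symbol: H1-4, H1-2, IGHM, MS4A1, NXPE3, IQSEC1, GPRIN3, AHNAK and SRRM2. Among these, IQSEC1 (76.0 against 30.1 CPM) and GPRIN3 (76.0 against 30.9 CPM) reached the mean of 50 CPM only through the high-mitochondrial set. The largest ratio belonged to a feature without a symbol, ENSMMUG00000056950, at 125 against 17.8 CPM, with 65 of its 66 UMIs in 1 barcode.

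The linker histones H1-4 and H1-2, which bind DNA between nucleosomes, were among them. H1-4 had 466 CPM in deep high-mitochondrial barcodes and 116 in deep kept ones, a log2 ratio of the counts of 2.004 (1.81 to 2.19, 245 UMIs). A UMI of it was found in 69 of 129 barcodes (53.5%, 44.5 to 62.3%) against 26.1% of kept ones (25.1 to 27.2%), at median depths of 3805 and 3547 UMIs. H1-2 had 175 against 62.4 CPM (1.49, 1.17 to 1.79). AHNAK, a very large scaffold protein encoded on chromosome 14 (Mmul_10, 11654721 to 11766955), had 1873 against 894 CPM (1.07, 0.97 to 1.16, 986 UMIs). It was found in 121 of 129 barcodes against 82.9% of kept ones. SRRM2, a splicing protein of nuclear speckles encoded on chromosome 20 (2864535 to 2883340), had 359 against 171 CPM (1.07, 0.85 to 1.28). In shallow barcodes the ratio of H1-4 was 0.35 (-0.40 to 1.04, 22 UMIs). It was found there in 10.3% of high-mitochondrial and 11.3% of kept barcodes. The shallow ratio of H1-2 was 0.75 (-0.73 to 2.05, 7 UMIs) and that of SRRM2 0.89 (0.41 to 1.35). AHNAK had a shallow ratio of 0.59 (0.41 to 0.77) and was found in 69.9% against 70.5% of barcodes. No cell type in the sample is known to lack these genes, so no background share could be set beside theirs.

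A feature without a symbol, ENSMMUG00000054358, was singled out after its values had been seen, because of its size. It had 18352 UMIs in the deep high-mitochondrial barcodes, 34870 CPM against 15545 in deep kept ones (1.17, 1.14 to 1.19). Its median over barcodes was 2.46% of non-mitochondrial UMIs (quartiles 1.43 and 4.28%) against 0.821% (quartiles 0.492 and 1.495%). In shallow barcodes it stood at 35847 against 13328 CPM. Single barcodes held much of it, and without the 10 barcodes with most of its UMIs in each group it stood at 27448 against 14719 CPM in deep and 20900 against 7402 CPM in shallow barcodes. Its place in the genome is not given here, since the deposited gene list holds no coordinates.

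H1-4 and AHNAK were higher in each further bin of mitochondrial percent, also among kept barcodes, which the 20% limit does not separate. Both were named for being higher above 20%, so their levels above 20% repeat that choice. Of the other genes binned among deep barcodes, SRRM2 and ZFP36L2 were also higher in each further bin. H1-2 was not, at 62.9 CPM at 2.5 to 5 and 59.3 at 5 to 10. NXPE3 was not either, at 95.3 CPM up to 2.5 and 92.5 at 2.5 to 5. Among deep barcodes, H1-4 stood at 64.6 CPM at a mitochondrial percent up to 2.5, 99.8 at 2.5 to 5, 146 at 5 to 10, 187 at 10 to 15, 241 at 15 to 20, 432 at 20 to 25 and 544 above 25. AHNAK went from 683 CPM in the lowest bin through 965 at 5 to 10 and 1288 at 15 to 20 to 2473 CPM above 25. ENSMMUG00000054358 stood at 7516 CPM in the lowest bin, 42434 CPM at 15 to 20, 37116 CPM at 20 to 25 and 29543 CPM above 25. At 15 to 20, 1 barcode held 8188 of its UMIs, and without it that bin stood at 33173 CPM. The median over barcodes of this feature was 0.481% in the lowest bin, 2.33% at 15 to 20, 2.76% at 20 to 25 and 2.05% above 25. Over the same bins the median of the 13 named mitochondrial genes lay between 0.857 and 1.17% of non-mitochondrial UMIs, and that of ribosomal proteins between 28.1 and 31.9%. The lowest bin had 982 barcodes and the highest 40. Bins hold different barcodes of 1 sample, and no spread over samples can be given.

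**Figure D4:**
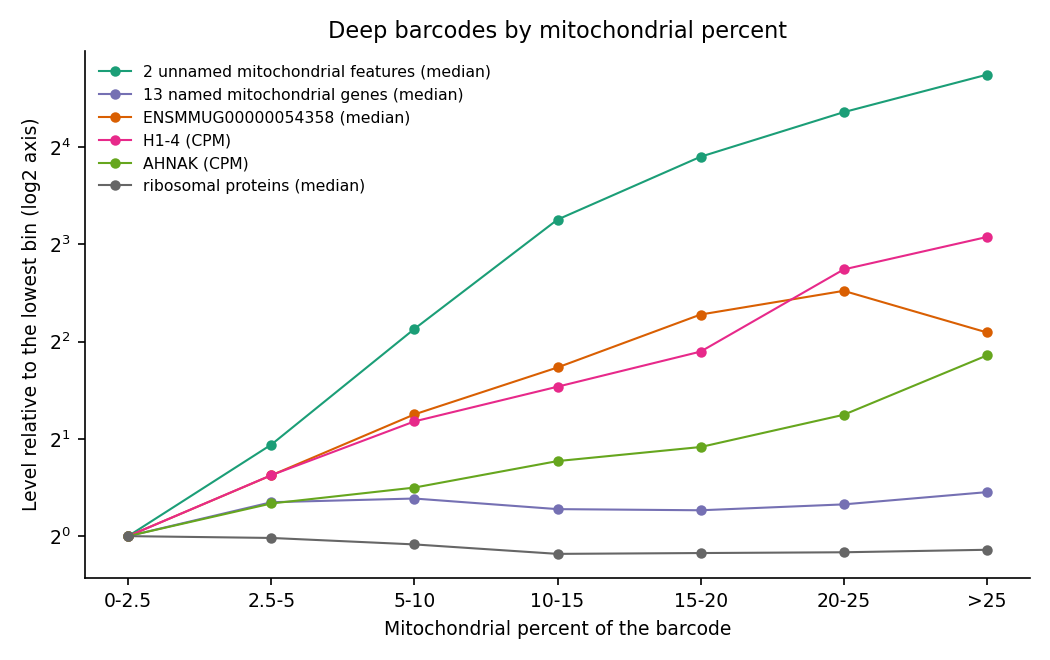
Deep barcodes (2000 or more non-mitochondrial UMIs) are binned by mitochondrial percent on the horizontal axis, and each level is divided by its value in the lowest bin, on a log2 axis. The unnamed pair and ENSMMUG00000054358 are shown by their median over barcodes and H1-4 and AHNAK by CPM. The unnamed pair, H1-4 and AHNAK are higher in each further bin, ENSMMUG00000054358 is highest at 20 to 25%, while the named mitochondrial genes lie between 0.857 and 1.17% and ribosomal proteins between 28.1 and 31.9% in every bin. The unnamed pair is part of the mitochondrial percent, so its rise follows from the binning.

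Of the genes with a symbol called higher in deep barcodes, 2 depended on a few barcodes, as did the feature ENSMMUG00000056950 described above. IGHM, the heavy chain of IgM, and MS4A1, the B cell surface protein CD20, had log2 ratios of 1.55 and 1.56 in deep barcodes. Without barcodes that carried B cell genes and no CD3, the ratios were 0.85 (0.32 to 1.33) and 0.53 (-0.14 to 1.12). MAMU-DRA, an MHC class II chain, went from 1.01 to 0.12 (-0.17 to 0.40) in the same way. H1-4 stood at 1.97, AHNAK at 1.03 and SRRM2 at 1.06 without these barcodes. HBA, a globin chain of red blood cells, was the gene called lower, at 30.4 against 159 CPM, but 3270 of its 4589 UMIs in kept barcodes came from 1 barcode.

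Transcript length went with the ratios in both sets. The longest annotated transcript in the RefSeq annotation of Mmul_10 was known for 93.8% of the genes compared in shallow and 93.4% in deep barcodes. In shallow barcodes the median log2 ratio was -0.88 for 263 genes with transcripts under 1000 bases, -0.05 at 1000 to 2000, 0.30 at 2000 to 4000, 0.44 at 4000 to 6000, 0.50 at 6000 to 8000 and 0.64 for 278 genes of 8000 bases or more. In deep barcodes the medians went the same way over a smaller range, from -0.12 under 1000 bases to 0.35 at 8000 or more. Spearman's rho between transcript length and log2 ratio was 0.46 across 3590 genes in shallow and 0.45 across 2248 genes in deep barcodes. Without ribosomal protein genes it was 0.43 in both. The shallow kept barcodes were a mixture, with 306 of 533 low-ribosomal, against 138 of 146 shallow high-mitochondrial barcodes. The relation with length was not tested within the shallow low-ribosomal barcodes alone. How far the shallow medians reflect this mixture was therefore not tested. Genes are not independent replicates, all of them share the same libraries, and transcript length also went with gene span (rho 0.68 and 0.69). As examples, the transcript of AHNAK has 18718 bases and that of S100A4 has 582.

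**Figure D5:**
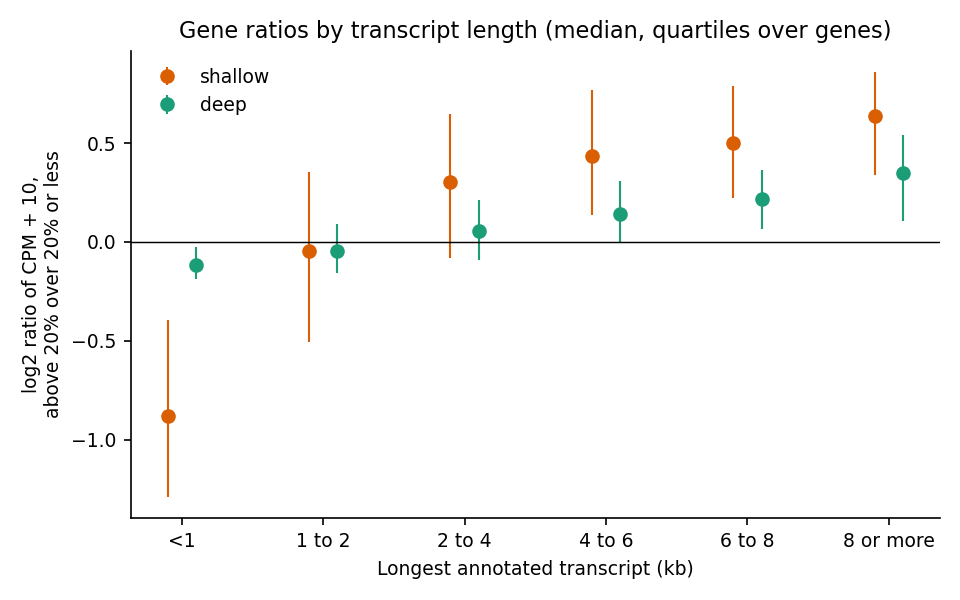
Genes are grouped by the length of their longest annotated transcript in kilobases, and points are the median log2 ratio of CPM + 10, high-mitochondrial over kept, with bars for the quartiles over genes, in shallow (orange) and deep (green) barcodes. Medians are higher in each further group, from -0.88 to 0.64 in shallow and from -0.12 to 0.35 in deep barcodes. The relation was not tested within the shallow low-ribosomal barcodes alone.

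By their medians, both antibody tags of the high-mitochondrial barcodes lay above those of 94 barcodes with B cell genes and no CD3. These 94, which should lack CD4 and CD8, were 8 high-mitochondrial and 86 kept barcodes. The 94 had medians of 90.5 CD4 and 139.5 CD8 tag UMIs. Their upper quartiles, 128.75 and 209.75, were exceeded by 258 (93.8%, 90.3 to 96.4%) and 181 (65.8%, 59.9 to 71.4%) of the 275. In kept barcodes 95.7% and 70.6% exceeded them. A tag count at the low end is not above this background. The CD4 tag ran from 40 to 1338 UMIs with a median of 359, against 381 in kept barcodes, and 126 of 275 (45.8%, 39.8 to 51.9%) exceeded that kept median. The CD8 tag ran from 51 to 1776 with a median of 318 against 335, and 134 of 275 (48.7%, 42.7 to 54.8%) exceeded the kept median. The tags thus lay near the kept values although the RNA of the group was shallower. Per 1000 non-mitochondrial UMIs the CD4 tag had a median of 176 against 105 and the CD8 tag 172 against 99.2. In deep barcodes these were 100.8 against 103.4 and 95.1 against 94.8, and in shallow ones 380.6 against 232.1 and 314.0 against 192.9. Non-mitochondrial UMIs also enter the rule that chose the barcodes.

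The tags were lower in shallow than in deep barcodes. Shallow high-mitochondrial barcodes had a median of 334 CD4 and 274.5 CD8 tag UMIs, and deep ones 405 and 367. Shallow kept barcodes were lower still, at 263 and 213, and 103 of the 146 shallow high-mitochondrial barcodes (70.5%, 62.4 to 77.8%) exceeded that CD4 median and 89 (60.96%, 52.5 to 68.9%) that CD8 median. In deep barcodes the kept medians were 389 and 344, and 71 and 69 of 129 barcodes exceeded them (55.0%, 46.0 to 63.8%, and 53.5%, 44.5 to 62.3%).

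The mRNAs of CD4, CD8A and CD3E are given as CPM, a measure unlike the tag UMIs per barcode. In shallow high-mitochondrial barcodes CD4 and CD8A rested on 57 and 47 UMIs, so their wide intervals do not show that a difference is absent. CD4 mRNA had 435 against 373 CPM in shallow barcodes (0.22, -0.22 to 0.64) and 198 against 178 in deep ones (0.15, -0.15 to 0.43). CD8A had 358 against 284 CPM in shallow (0.34, -0.16 to 0.81) and 173 against 179 in deep barcodes (-0.05, -0.36 to 0.25). CD3E had 1731 against 1918 CPM in shallow (-0.15, -0.36 to 0.06) and 1347 against 1429 CPM in deep barcodes (-0.09, -0.19 to 0.02). CD8B rested on 2 and 7 UMIs. With each barcode thinned to 1000 non-mitochondrial UMIs, which left out 100 high-mitochondrial and 227 kept barcodes, a CD4 UMI was found in 21.1% of 175 high-mitochondrial barcodes (15.3 to 27.9%) and 17.2% of kept ones (16.4 to 18.1%). CD8A was found in 19.4% (13.8 to 26.1%) and 14.97% (14.2 to 15.8%). Barcodes with B cell genes and no CD3, which should lack both, gave 3.30% and 2.20% at the same depth of UMIs. Before thinning, CD4 was found in 39.3% of high-mitochondrial and 47.5% of kept barcodes, and CD8A in 29.5% and 38.1%, at median depths of 1610 and 3446. Deep barcodes made up 129 of the 175 high-mitochondrial barcodes that were thinned, so the thinned shares mostly describe the deep set.

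Cytotoxic genes, which encode the granule proteins of killer cells, had lower sums in both sets, with members on either side. Their sum had a log2 ratio of -0.48 (-0.58 to -0.37) in shallow barcodes, with KLRD1, CST7 and CCL5 lower among 14, and -0.21 (-0.26 to -0.15) in deep ones, with none of 13. GZMB was at 923 against 1680 CPM in shallow (-0.86, -1.15 to -0.59) and 876 against 1293 CPM in deep barcodes (-0.56, -0.70 to -0.43), and CCL5, a chemokine of effector cells, at 153 against 408 and 196 against 300 CPM. GNLY, granulysin, went the other way in shallow barcodes, at 747 against 522 CPM (0.51), and stood at 374 against 397 CPM in deep ones. PRF1, perforin, was at 85.5 against 72.7 CPM in deep barcodes (0.21), and SRGN, the granule proteoglycan with the highest CPM of the list, at 1550 against 1609 CPM (-0.05). Thinned to 1000 UMIs, GZMB was found in 29.1% (22.5 to 36.5%) of high-mitochondrial and 37.7% (36.6 to 38.8%) of kept barcodes, with 5.49% in barcodes with B cell genes. Of the 175 high-mitochondrial barcodes that were thinned, 129 were deep, so this share mostly describes the deep set. Naive T cell genes went the other way, at 0.84 (0.63 to 1.04) in shallow barcodes, with 1 of 8 higher, and 0.22 (0.09 to 0.36) in deep ones, with none of 7. Within the shallow low-ribosomal barcodes alone their ratio was smaller, at 0.26 (0.04 to 0.48), from 2108 against 1761 CPM. Over all genes in shallow barcodes, 7.92% were higher and 7.03% lower, so the 1 of 8 naive genes called higher is near that share. PECAM1, the adhesion protein CD31, was at 282 against 95.2 CPM in shallow barcodes (1.47) but at 58.9 against 76.3 CPM in deep ones (-0.32). Deep barcodes with at least 5 UMIs of cytotoxic genes were 52.7% (43.7 to 61.6%) of the high-mitochondrial and 56.3% (55.1 to 57.5%) of the kept set.

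Markers of other blood cells were few. B cell genes had 776 CPM in high-mitochondrial and 264 in kept barcodes, and 8 barcodes of the 275 (2.91%, 1.26 to 5.65%) and 86 kept ones (1.13%, 0.906 to 1.40%) held 3 or more of their UMIs and no CD3. In the shallow set the largest ratio belonged to a feature without a symbol, whose 111 UMIs lay in 5 barcodes. IGHM stood at 1235 against 46.0 CPM, and 153 of its 162 UMIs came from 2 barcodes with 82 and 71 of them. These held 1 and 0 CD3 UMIs, no MS4A1, 69 and 73 CD4 tag UMIs and 56 and 57 CD8 tag UMIs, well under the medians of the set. Without them IGHM stood at 70.4 CPM and MZB1, a chaperone of antibody-secreting cells, at 39.1 in place of 130 CPM. Monocyte genes had 105 against 155 CPM, with 8 of 13 at 0 in the high-mitochondrial barcodes, among them CD14 and S100A8. For this and the lists below, members at 0 in kept barcodes were not counted. TYROBP held 50 of the 69 monocyte-list UMIs, and 10.9% of high-mitochondrial and 20.5% of kept barcodes held a UMI of that list. NK cell genes had 89.7 against 103 CPM, with NCAM1 and 3 others at 0. KLRF1 held 45 of the 59 UMIs of that list, at 68.4 against 74.2 CPM. A UMI of the NK cell list as a whole was found in 14.2% of high-mitochondrial and 24.9% of kept barcodes. The shares of barcodes with a UMI of the monocyte and NK cell lists were not thinned. They compare groups with median depths of 1610 and 3446 non-mitochondrial UMIs. Platelet genes had 2 UMIs, with PPBP and PF4 at 0, and red blood cell genes 31.9 against 258 CPM, with ALAS2 at 0. Of the 7563 UMIs of red blood cell genes in kept barcodes, 6044 lay in 1 barcode, and without it the kept level was 51.7 CPM. Plasmacytoid dendritic cell genes had 920 against 1332 CPM, nearly all of it GZMB, with CLEC4C and IL3RA at 0. The list of nuclear long non-coding RNA could not be used, since none of its members is named among the features.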

How the data were processed

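One sample was measured in an RNA and a tag library. Per the submitters' processing notes, Cell Ranger 3.1.0, STAR 2.5.1b, Seurat 3.1.3 and the build Mmul_10 were used. The authors deposited unnormalized UMI counts, with 35432 genes and 2 tags in each of 7923 barcodes. No annotation release is named in those sources. A symbol was given for 23817 genes in the deposited list, and a table of gene names gave 720 more. No doublet caller was run, and the limit of 4000 genes was the only treatment of doublets.

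The study's limits of 200 to 4000 genes and 20% mitochondrial UMIs were applied. Counts were summed over the barcodes of a group and scaled to 1000000 non-mitochondrial UMIs (CPM). Log2 ratios of single genes are on the CPM + 10 scale, which understates the change of low genes, and those of lists and of genes given as ratios of counts have no pseudocount. Intervals are exact, from the binomial split of 2 counts for ratios and Clopper-Pearson for shares, and cover counting error only. A count of 0 is read against 3 counts. The members, gene lists and alternatives were chosen with earlier results of these data known. Genes named are the 12 with the largest and smallest ratios in each comparison (features without a symbol are counted but not named by this rule), and for each list the members with the largest and smallest ratio and the highest CPM. Features without a symbol and other members past 2-fold were named after their values had been seen. The split at 2000 UMIs, the 15% ribosomal limit, transcript lengths and the genes named in the bins were chosen after the data had been seen. Groups deemed B cell gene barcodes needed 3 UMIs of that list and none of CD3D, CD3E and CD3G. The computation was tested on simulated data. Python 3.11.15, numpy 2.4.6, scipy 1.17.1, pandas 2.3.3 and matplotlib 3.10.9 were used.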

Additional observations from a re-analysis of the deposited data

Results flagged for a closer look

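Outside the barcodes compared, 33 barcodes had under 200 genes, and 30 of them lay above 20% mitochondrial UMIs. They were singled out because they belong to no comparison and no control sample exists for them. None of the 14 barcodes with over 4000 genes lay above 20%.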

How the results depend on the processing

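Barcodes of 1 sample have no replicate, so no replicate could be left out. No paired analysis was possible because the groups are barcodes of the same sample and carry no replicate numbers. Over all high-mitochondrial barcodes, 50 genes were higher and 1 lower, ribosomal proteins had a log2 ratio of -0.36, and 28.7%, 45.8% and 48.7% of barcodes exceeded the kept medians of non-mitochondrial UMIs, the CD4 tag and the CD8 tag. No direction of the ribosomal ratio reversed. The counts depended strongly on the setting, and the cause was not tested. With a limit of 10%, 3 genes were higher and 2 lower, the ribosomal ratio was -0.22 and 42.4% exceeded the depth median, and with 15% these were 6, 2, -0.28 and 34.99%. With 30% they were 1320, 287, -1.56 and 4.17%. With the 13 named genes only they were 1335, 292, -1.76 and 2.18%, and 39.3% exceeded the CD4 median. With at least 500 genes 0 were lower (-0.32), and without B cell gene barcodes the ratio was -0.35. With both groups limited to 850.5 to 3719 non-mitochondrial UMIs, 228 were higher and 4 lower (-0.51), and 55.5% exceeded each tag median, but depth was not matched, since 24.1% (17.2 to 32.1%) exceeded the kept depth median. Within cytotoxic-gene barcodes 3 were lower (-0.26, depth 36.4%), and within naive-gene barcodes 124 were higher and 6 lower. The mean over barcodes gave 675 and 16 (-0.86), and CPM over all UMIs 5 and 5 (-0.72). Without ribosomal genes in the total 4 were lower. A pseudocount of 1 gave 104 higher and of 50 gave 7. A filter of 20 CPM gave 133 and 7, of 200 CPM 8 and 0, and no filter 154 and 15. Per 1000 non-mitochondrial UMIs, 70.2% and 71.3% exceeded the CD4 and CD8 tag medians. Among deep barcodes, 44.96% and 50.4% exceeded the deep kept medians of this measure.

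The following were chosen after seeing the data. Shallow barcodes gave 303 and 269 (-1.26), with 21.9%, 70.5% and 60.96% above the medians of depth, CD4 and CD8. Deep barcodes gave 12 higher (-0.14), with 57.4% and 55.0% above those of depth and CD4. Leaving out the 2 barcodes with most B cell list UMIs was the other, besides leaving out the barcodes with most UMIs of ENSMMUG00000054358 or of red blood cell genes, and taking the low-ribosomal barcodes of the shallow set alone. Thinned to 500 in place of 1000 UMIs, CD3E was found in 50.8%, CD4 in 11.9%, CD8A in 11.9% and GZMB in 20.2% of high-mitochondrial barcodes, and thinned to 2000, CD3E in 88.4%, CD4 in 31.0% and CD8A in 26.4%. Without thinning CCR7 was found in 28.0%. Counts in the shallow set limit the precision of its folds, since most of its genes rest on few UMIs.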
